A study of Mus musculus with 36 samples.

Results

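The strain difference described here set the ligated left carotid artery of 129X1/SvJ mice (129X1) against that of C57BL/6 mice (B6, written C57BL/6J in the study's treatment protocol). All 6 mice were given vehicle at 2 mL/kg/day for 7 days on the therapeutic schedule, which started 7 days after carotid ligation, and arteries were collected 14 days after ligation. The comparison took the 3 libraries of each strain, 6 of the 36 in the series, and was read across the 18628 genes that passed a filter on low counts out of 49568 symbols. Each library came from 1 artery, titled by its animal number, and was sequenced from a stranded mRNA preparation, and the 6 libraries held 22082275 to 28444597 counts in genes. Every group of the series had a ligated artery, so no unligated artery enters, and the ages of the mice are not given in the sources used here. A difference between the strains could be present without ligation or arise after it, and these cannot be told apart. The other mice used for comparison were the 3 and 3 mice of the prophylactic schedule, given the same vehicle for 16 days from 2 days ahead of ligation. A second set was the 6 and 6 mice of the therapeutic schedule given valsartan at 27 mg/kg/day or sacubitril/valsartan at 60 mg/kg/day.

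Carotid ligation stops flow in the vessel, after which smooth muscle cells of the wall change from a contractile to a matrix-producing state, leukocytes enter and a neointima can form. Inbred mouse strains differ in how strongly this remodelling proceeds. They also differ in gene copy number, in insertions of processed gene copies and in clusters of immune genes such as the Trim, Schlafen and Ifi200 families, whose members restrict viruses or sense nucleic acids. The reference genome GRCm38, to which all reads were aligned, is that of C57BL/6J.

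The 6 libraries differed in neighbouring tissue, measured by the defining genes of each tissue. Rag1, which starts receptor gene rearrangement in thymocytes, was at 84.5, 0.94 and 368 CPM in 129X1 and 1.05, 756 and 126 in B6, high in 129X1 libraries 1 and 3 and B6 libraries 2 and 3. Tg, the thyroid hormone precursor, was at 1.26, 3254 and 1292 CPM in 129X1 and 3.6, 3.88 and 39846 in B6. Cd79a, part of the B cell receptor, reached 33.6 CPM in 129X1 library 2 and at most 1.96 CPM in the other 5. The skeletal muscle actin Acta1 was at 5930.4, 1732 and 4398 CPM in 129X1 and 3406, 653 and 1637 in B6, and the brown fat uncoupling protein Ucp1 was at 3068, 2254 and 2438 CPM in 129X1 and 986, 940.3 and 472 in B6. The artery's own markers were present in every library: smooth muscle Acta2 was at 384, 847 and 111.4 CPM in 129X1 and 1386, 564 and 573 in B6, smooth muscle myosin Myh11 at 293, 536 and 105.7 CPM in 129X1 and 349, 201 and 242 in B6, and endothelial Pecam1 at 206, 273.3 and 161 CPM in 129X1 and 262, 172.3 and 190.2 in B6. In bulk samples such as these, fewer cells of a type and less RNA per cell cannot be told apart.

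In all, 593 genes differed between the strains at a Benjamini-Hochberg adjusted p below 0.05 in edgeR's quasi-likelihood test, 3.18% of those tested. Of these, 299 (1.61%) were higher and 294 (1.58%) lower in 129X1, and below a gene is said to have passed where it met this threshold. Levels are in counts per 1000000 counts (CPM) on TMM-scaled library sizes and are not per gene length, so they compare libraries and not genes. A second value in parentheses after a log2 difference, or a lone value given for a left-out library, is the adjusted p of the same test. Signed values without a unit are log2 differences, 129X1 minus B6. Values of the strains did not overlap for 586 of the 593, beside 20.9% of all genes tested. The 593 were chosen by a test on the same libraries, so their separation is no added support. The median log2 difference (129X1 minus B6) of all genes tested was -0.09, with 10838 of the 18628 below 0. The median size among genes that passed was 2.60. A difference of at least 1 on the log2 scale was seen in 504 of the 593, of at least 2 in 366 and of at least 5 in 153. For 188 of the 593, every library on 1 side held at most 3 counts, and it was B6 that held the reads for 71 of these and 129X1 for the others. The fitted sizes of those 188 depend on the prior count and are no bounds. Among the other 405 the median size was 1.82, and 27 reached 5. Intervals (95%) of the log2 differences reached 0.76 to either side in the median gene. With the libraries that had Rag1 levels of 10 CPM or more left out, 1 mouse of each strain remained (129X1 library 2 and B6 library 1, spread taken from the other groups) and 136 genes passed, 102 of them among the 593. Leaving out 1 library gave 352 genes without 129X1 library 1, 390 without 129X1 library 3 and 432 to 562 without another.

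By gene class, 124 of the 485 tested pseudogenes passed (25.6%), 20 of them lower and the others higher in 129X1, with a median size of 5.56 on the log2 scale. Of 15415 protein-coding genes, 347 passed (2.25%), 134 higher and 213 lower, with a median size of 1.89. Pseudogenes made up 75 of the 153 differences of at least 5, and 66 of those 75 were higher in 129X1. The difference between the classes in how often genes passed was not tested.

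**Figure D1:**
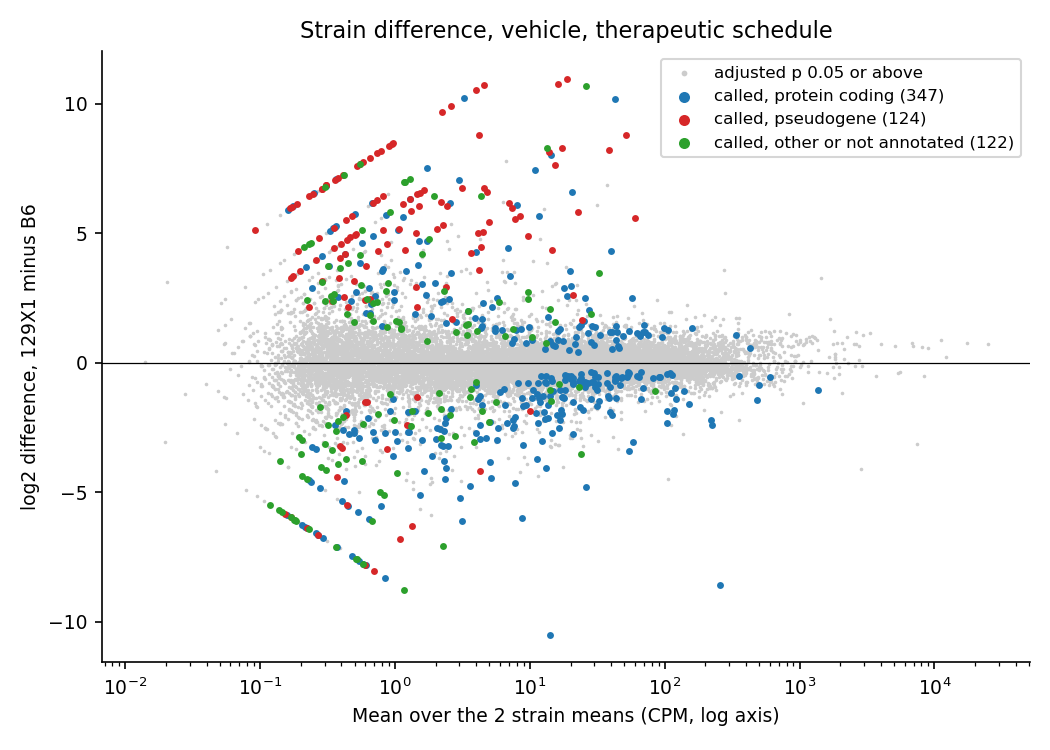
Each point is 1 of the 18628 tested genes, with the mean of the 2 strain means in CPM (log axis) against the log2 difference, 129X1 minus B6, and genes that passed are coloured by class. The pseudogenes higher in 129X1 lie mostly at large positive differences, and the protein-coding genes that passed lie mostly within 5 of 0.

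Many of the largest differences toward 129X1 were in processed gene copies that B6 libraries scarcely contained. Gm11942, a processed pseudogene on chromosome 4 at chr4:32964888-32965232, was at 37.8, 43.6 and 31.1 CPM in 129X1 and 0.0375, 0 and 0 in B6, a ratio of summed counts of 2809 (95% counting interval 504 to 110996). Rps13-ps1 and Rps15a-ps8, copies of ribosomal protein genes of the small subunit, had ratios of 2433 (95% counting interval 436 to 96152) and at least 228. Rpl15-ps2, a copy of a large-subunit gene, was at least 200.2-fold higher in 129X1 against a floor of 3 counts over the B6 group, which is also the floor for Rps15a-ps8. No B6 library had a count of Rpl15-ps2 or Rps15a-ps8, while every 129X1 library lay between 7.54 and 11 CPM for them.

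Rps3a3, a copy of the ribosomal protein gene Rps3a1 that lies on chromosome 13 at chr13:108670603-108671397, within the same-strand gene Pde4d, was at 93, 120.3 and 93.6 CPM in 129X1 and 0.187, 0.4 and 0.0849 in B6 (log2 difference 8.79 ± 0.47 (SE), adjusted p = 2.52e-13). Ftl1-ps2, a copy of the ferritin light chain gene, had a ratio of 627 (95% counting interval 112 to 24809), and Gm6166, which matched the fatty acid binding protein gene Fabp5, had 328 (95% counting interval 166 to 759.8). Hist1h2al, whose symbol is that of a histone H2A gene but which is annotated as a processed pseudogene, had no count in the B6 libraries and was at least 130.9-fold higher in 129X1. Gm15487, a symbol not found in GENCODE M21, was at 28.4, 27.6 and 24.1 CPM in 129X1 and 0.15, 0.04 and 0.0424 in B6. All of these copies, and Gm15487, for which no parent was matched, were in separate ranges in the strains. The counting intervals cover counting error only, and how reads that match a copy and its parent were shared is not given in the sources used here.

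Genes not annotated as pseudogenes were also among the largest differences. Eno1b, an intronless relative of the glycolytic enolase gene Eno1, was at 99, 82.1 and 73.5 CPM in 129X1 and 0.0375, 0.0799 and 0.0849 in B6, a ratio of summed counts of 1279 (95% counting interval 548 to 3941). Eno1 itself was at 545, 440.5 and 433 CPM in 129X1 and 592, 503 and 516 in B6 and did not pass (log2 difference -0.18 ± 0.34 (SE), adjusted p = 0.861), and the sum of Eno1 and Eno1b differed by 0.06 ± 0.34 (SE) with an adjusted p of 0.963. Zfp990, a zinc finger gene on chromosome 4, was at 4.85, 8.24 and 6.22 CPM in 129X1 and 0, 0 and 0 in B6 and thus at least 160.1-fold higher in 129X1. BC018473, annotated as an antisense RNA on chromosome 11, was at 40.2, 31 and 85.4 CPM in 129X1 and 0.0375, 0.04 and 0 in B6, a ratio of 1988 (95% counting interval 549.9 to 16420.1). With the strand setting of the counting not given in the sources used here, reads of an antisense gene and its partner cannot be told apart.

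To show how near such copies are to their parents, 3 pairs are printed, each as the stretch of 90 coding bases that holds the most differences, with the differing bases in capitals. The bases are those of GENCODE M21 transcripts on GRCm38, so the copy is the one in the reference genome, and the positions count from the first base of the parent's start codon. Ndufs5 encodes a subunit of respiratory complex I (chr4:123712710-123718202, minus strand), and its copy BC002163 lies at chr16:42955631-42955949 within the same-strand gene Zbtb20. The pair differed at 2 of 318 coding bases, both within positions 16 to 105.
Ndufs5: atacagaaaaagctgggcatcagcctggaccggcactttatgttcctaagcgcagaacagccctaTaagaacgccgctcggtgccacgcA
BC002163: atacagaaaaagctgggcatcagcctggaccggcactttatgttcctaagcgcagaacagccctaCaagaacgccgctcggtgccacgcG
Rps3a1 (chr3:86137940-86142702, minus strand) encodes a small-subunit ribosomal protein and differed from Rps3a3 at 9 of 792 coding bases, 2 of them within the 90 bases that end at position 260.
Rps3a1: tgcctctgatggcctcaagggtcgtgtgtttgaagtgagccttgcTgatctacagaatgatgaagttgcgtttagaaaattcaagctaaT
Rps3a3: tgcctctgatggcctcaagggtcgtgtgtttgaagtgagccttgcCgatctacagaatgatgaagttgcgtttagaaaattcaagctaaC
Rplp0 (chr5:115559467-115563727) encodes the stalk protein of the large ribosomal subunit and differed from Gm8730 (chr8:102864845-102865798, minus strand) at 12 of 951 coding bases, 3 of them within positions 358 to 447.
Rplp0: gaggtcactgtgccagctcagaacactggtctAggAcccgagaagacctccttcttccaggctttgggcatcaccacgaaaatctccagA
Gm8730: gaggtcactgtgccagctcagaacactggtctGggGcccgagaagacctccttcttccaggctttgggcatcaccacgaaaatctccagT

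The parents of such copies lay below 0 more often than above it. Ndufs5 was at 1.18, 1.84 and 1.35 CPM in 129X1 and 29.8, 22.1 and 22.1 in B6 (log2 difference -4.08 ± 0.43 (SE), adjusted p = 1.75e-07) and its copy BC002163 at 56.2, 41.8 and 36.8 CPM in 129X1 and 0.787, 0.799 and 0.806 in B6 (5.81 ± 0.40 (SE), adjusted p = 6.39e-11). The strains were in separate ranges for both, in opposite directions. With the counts of the pair summed, the log2 difference was 0.87 ± 0.29 (SE) with an adjusted p of 0.124, so the lower call of Ndufs5 did not hold for the sum. Rps3a1 was at 74.9, 90.9 and 71.6 CPM in 129X1 and 352, 413 and 325 in B6 (-2.20 ± 0.18 (SE), adjusted p = 2.36e-09), and its sum with Rps3a3 was still lower in 129X1, at -1.002 ± 0.18 (adjusted p = 0.000598). Rps3a2, another copy of Rps3a1, was itself lower in 129X1 (-3.23 ± 0.65 (SE), adjusted p = 0.00269).

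Across the table, 364 of the 485 tested pseudogenes matched a protein-coding transcript by sequence over at least 80% of their length at 80% identity or more, and the 89 matched copies that were higher in 129X1 had 79 parents. Of these parents 19 were lower and 1 was higher in 129X1, beside 1.58% and 1.61% of all genes. A difference below 0 was seen in 66 of the 79, beside 10838 of all 18628 genes tested, and the median of the 79 was -0.40. The 199 parents of copies that did not pass held 12 that were lower and none that was higher (edgeR's quasi-likelihood test), with a median of -0.20, beside the median of -0.09 over all genes tested. Parents of the 14 matched copies that were lower in 129X1 lay below 0 as well, 13 of 14, with a median of -0.63. Of these 14 parents 5 were lower and 0 higher. Lying below 0 was thus not particular to the parents of copies higher in 129X1. Once each parent and its matched copies were summed, 8 of the 19 lower calls held, 9 no longer passed and 2 turned higher, and the median of the 79 became -0.18. The 2 that turned were Gm10073 (from -4.16 to 3.60, adjusted p = 2.23e-09) and Ftl1-ps1 (from -5.35 to 4.49, adjusted p = 2.46e-06), entries that GENCODE M21 lists as coding. Over the whole table, summing left 413 genes that passed of 18259, 180 of them higher and 233 lower.

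Some parents, named after their values were seen, kept their difference. Rpl29, a large-subunit ribosomal protein gene, was at 9.38, 10.3 and 8.23 CPM in 129X1 and 106.2, 105 and 86.3 in B6, a log2 difference of -3.41 ± 0.17 (SE), adjusted p = 3.3e-14 that became -3.25 ± 0.17 with its copies added (adjusted p = 2.85e-13). Rpl34 was at 43.4, 51.8 and 43.3 CPM in 129X1 and 190.1, 195 and 162 in B6, and its difference went from -1.98 to -1.94 (adjusted p = 4.64e-09). Rplp0 was at 242, 307 and 229.7 CPM in 129X1 and 764, 715 and 621 in B6 while Gm8730 was at 70.4, 91.6 and 69.5 CPM in 129X1 and 0.225, 0.32 and 0.212 in B6, and the sum of Rplp0 and its copies remained lower at -0.94 (adjusted p = 0.000996). Polr2k, a small subunit shared by RNA polymerases, was lower (-1.40 ± 0.19 (SE), adjusted p = 1.17e-05), and its sum with Gm20305 was not (0.16, adjusted p = 0.736). Gene pairs of this kind share reads or can share them, so the split between parent and copy is uncertain.

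**Figure D2:**
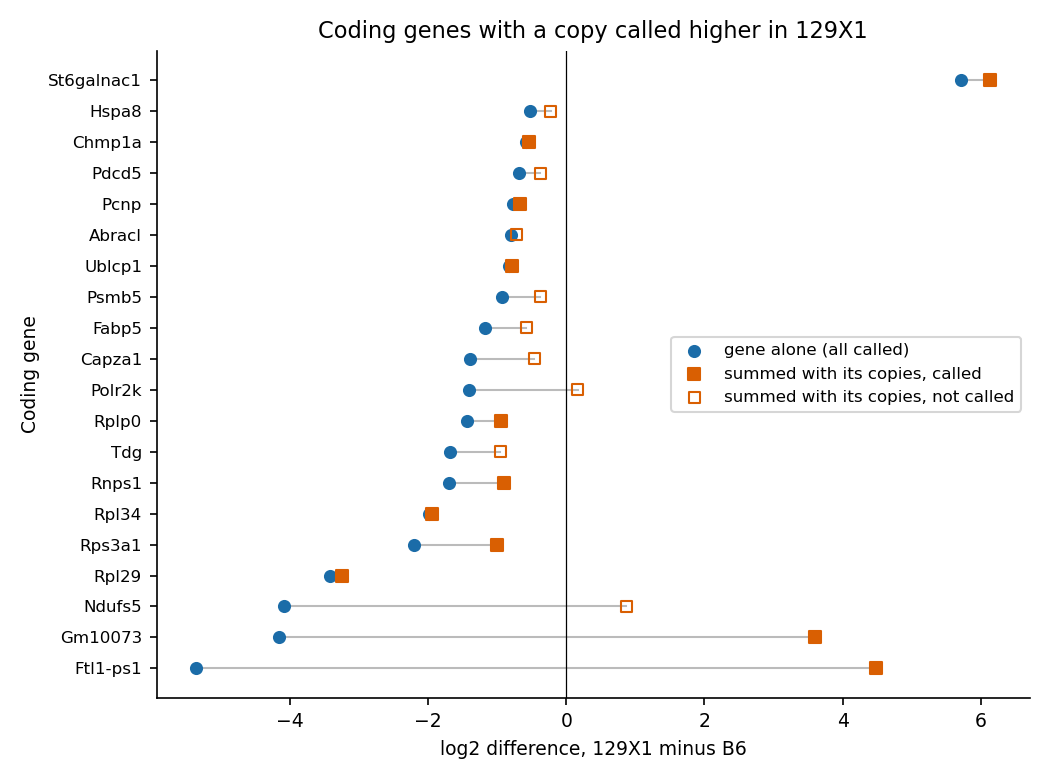
For each of the 20 coding genes that passed and have a matched copy higher in 129X1, the log2 difference of the gene alone (circles) is joined to that of the gene summed with its copies (squares, filled where the sum passed). Most sums lie nearer to 0 than the gene alone, Ndufs5 and Polr2k cross 0 without passing, and Gm10073 and Ftl1-ps1 cross to the higher side.

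A list of multi-copy families held interferon-inducible and restriction genes together with the Serpina1 antiprotease genes. Its genes passed in both directions, 6 higher and 6 lower in 129X1 of 41 tested, beside 3.18% of all genes in either direction. The 6 higher were Trim34b, Gbp2b, Ifi202b and the antiprotease genes Serpina1b, Serpina1d and Serpina1e, and none of the 6 lower was a Serpina1 gene. Trim12a, a relative of the retroviral restriction factor gene Trim5, was at 0.0408, 0 and 0 CPM in 129X1 and 24.6, 39 and 20.2 in B6, a ratio of summed counts of 1996 (95% counting interval 358 to 78871) in favour of B6 (chr7:104299894-104315466, minus strand). Its neighbour Trim12c was at 20.7, 24.4 and 29.5 CPM in 129X1 and 23.3, 31.8 and 20.5 in B6 and did not pass (-0.02 ± 0.30 (SE), adjusted p = 0.985), and the sum of Trim12a and Trim12c had an adjusted p of 0.0799. Trim5 was at 0.204, 0.358 and 0.205 CPM in 129X1 and 7.16, 8.47 and 5.3 in B6 (-4.75 ± 0.44 (SE), adjusted p = 1.89e-08), and no value of 1 strain came near the other.

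Trim30d was at 0.285, 0.269 and 0.246 CPM in 129X1 and 26.8, 14.4 and 10.6 in B6 (-5.99 ± 0.66 (SE), adjusted p = 4.31e-07), and its paralogue Trim30a, at 15.6, 21 and 17.6 CPM in 129X1 and 54.7, 35.3 and 22.1 in B6, did not pass alone (-1.05 ± 0.37 (SE), adjusted p = 0.151). Their sum was lower in 129X1 (-1.57 ± 0.37, adjusted p = 0.011). Within the pair Trim34a and Trim34b the strains were reversed: Trim34a was at 1.06, 1.34 and 2.29 CPM in 129X1 and 24.4, 20.2 and 17.9 in B6 (-3.73 ± 0.50 (SE), adjusted p = 1.33e-05). Trim34b was at 2.57, 3.94 and 3.4 CPM in 129X1 and 0.075, 0.0799 and 0.212 in B6 (4.71 ± 0.78 (SE), adjusted p = 0.00027), and their sum was lower in 129X1 (-2.11, adjusted p = 0.000194). Antisense Gm15133, which overlaps Trim12a on the other strand, was lower too (adjusted p = 0.0126).

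Slfn8, of the Schlafen family of growth and virus restriction genes, was at 0.326, 0.448 and 1.02 CPM in 129X1 and 23.4, 12.5 and 8.95 in B6 (-4.63 ± 0.63 (SE), adjusted p = 1.48e-05). Slfn9 did not pass (-0.67 ± 0.56 (SE), adjusted p = 0.649) and their sum had an adjusted p of 0.116. Ifi213, an Ifi200 family gene, was at 0.0408, 0.224 and 0 CPM in 129X1 and 12.5, 4.12 and 1.99 in B6 (-6.09 ± 1.20 (SE), adjusted p = 0.00216), while its relative Ifi202b was higher in 129X1, at 15.5, 18.3 and 13.3 CPM in 129X1 and 0, 0.559 and 0.127 in B6 (6.07 ± 1.37 (SE), adjusted p = 0.0099), a call that ended without B6 library 1 (adjusted p = 0.0585). Gbp2b, an interferon-induced guanylate-binding GTPase, was at 26.7, 30.8 and 27.4 CPM in 129X1 and 0.187, 0.12 and 0 in B6 (8.003 ± 0.70 (SE), adjusted p = 7.09e-09). Gbp2 did not pass (-0.67 ± 0.26 (SE), adjusted p = 0.219) and the sum of Gbp2 and Gbp2b differed by 0.13 ± 0.26 (adjusted p = 0.877).

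The Serpina1 genes encode copies of the antiprotease alpha-1-antitrypsin. Serpina1b was at 16.3, 31.1 and 17.4 CPM in 129X1 and 0.075, 0.16 and 0.127 in B6 (7.43 ± 0.67 (SE), adjusted p = 1.29e-08), Serpina1d was higher by 4.72 (adjusted p = 0.000739) and Serpina1e by 3.53 (adjusted p = 0.00053). Serpina1b and Serpina1d overlap on the same strand. Over the 41 tested genes of the multi-copy families the median was -0.53, also with genes near 0 counts placed at their counting ratio. Without B6 library 1 that median was -0.27.

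Among the other large differences toward B6, Zfp429, a zinc finger gene, was at 0.122, 0.134 and 0.205 CPM in 129X1 and 5.25, 6.19 and 6.41 in B6 (-5.22 ± 0.52 (SE), adjusted p = 6.72e-08). Gpr137b-ps, a transcribed pseudogene, was lower, at a log2 difference of -4.16 (adjusted p = 0.000685). Cd209a, a C-type lectin of dendritic cells, was at 0.285, 1.39 and 0.327 CPM in 129X1 and 16.9, 5.63 and 5.94 in B6 (-3.83 ± 0.74 (SE), adjusted p = 0.00167), and its values did not overlap. Gdf6, a ligand of the bone morphogenetic protein family, was at 0.367, 0.627 and 0.327 CPM in 129X1 and 23.8, 4.43 and 1.1 in B6 (-4.46 ± 1.15 (SE), adjusted p = 0.0268). B6 library 1 had the highest Gdf6 value. Without it the difference was -2.64 with an adjusted p of 0.271, and leaving out 129X1 library 1, 2 or 3 also ended the call, with Gdf6 at adjusted p of 0.151, 0.0668 and 0.143.

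**Figure D3:**
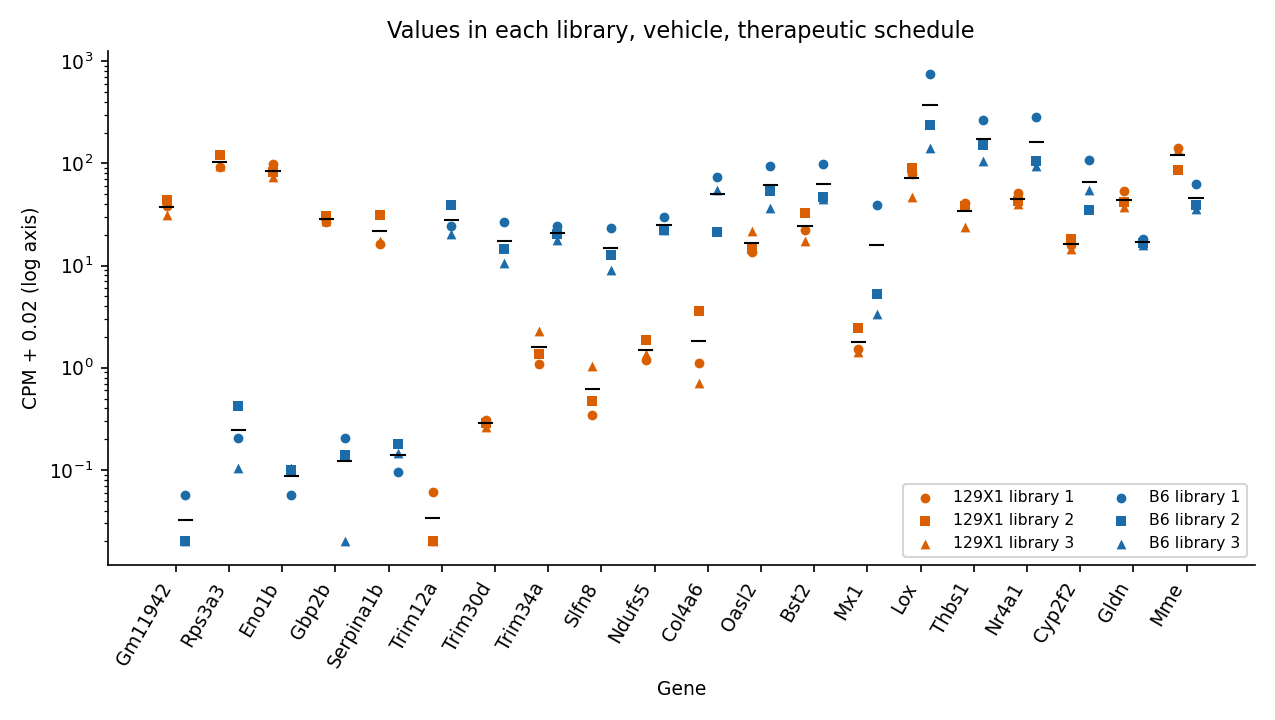
CPM plus 0.02 (log axis) of 20 named genes in each of the 3 libraries of 129X1 (orange) and of B6 (blue), with a bar at the mean of each group. The libraries of the strains are far apart for the 11 genes from Gm11942 to Col4a6. From Oasl2 to Nr4a1 the ranges lie closer and B6 library 1 is the highest point.

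Genes that passed were counted in windows of the genome. Of the 2174 windows of 1 Mb that held a tested gene, 417 held at least 1 gene that passed and 8 held at least 5, beside 3.18% of all tested genes that passed. Whether such windows are more frequent than chance gives was not tested. The window that ends at 105 Mb on chromosome 7 had 6 of 12 tested genes, namely Trim34a, Trim5, Trim12a, Gm15133 and Trim30d lower and Trim34b higher in 129X1. From 67 to 68 Mb on chromosome 13, 6 of 30 passed, among them Zfp429 and, named after their values were seen, the zinc finger genes Zfp457 (1.92), Zfp273 (-0.85) and Zfp874a (-0.51). The calls of those last 3 each ended when 1 of several libraries was left out, at adjusted p of up to 0.118, 0.13 and 0.118 for Zfp457, Zfp273 and Zfp874a. From 129 to 130 Mb on chromosome 6, 6 of 24 passed, 5 of them lower, and these included the natural killer receptor genes Klrc2 and Klre1, named after their values were seen. Klrc2 was low in all 6 libraries (0, 0.0448 and 0 CPM in 129X1 and 0.112, 2.36 and 0.679 in B6), with 78 counts in B6 against 1 in 129X1. Klrc2 no longer passed without any 1 of 129X1 library 1, 2 or 3 or B6 library 2 (adjusted p up to 0.209), and Klre1 no longer passed without any library but B6 library 3 (up to 0.252).

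Interferon-stimulated genes encode antiviral proteins and are switched on together through the response element bound by interferon-activated transcription factors. Of 30 tested genes of this response, 9 were lower and none higher in 129X1, beside 1.58% of all genes lower. The list's median was -1.37, and 29 of 30 members had a difference below 0, beside 10838 of all 18628 genes tested. Values did not overlap for 20 members, beside 20.9% of all genes. Oasl2, which binds double-stranded RNA, was at 13.5, 14.5 and 21.9 CPM in 129X1 and 94.8, 53.9 and 36.8 in B6 (-1.90 ± 0.47 (SE), adjusted p = 0.0198). Bst2, which tethers budding virus, was at 22.1, 33 and 17.5 CPM in 129X1 and 97.8, 46.4 and 44.3 in B6 (-1.38 ± 0.35 (SE), adjusted p = 0.0209). Every B6 value of both lay above every 129X1 value, and B6 library 1 was highest.

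Mx1, a dynamin-like GTPase active against influenza virus, was at 1.51, 2.42 and 1.39 CPM in 129X1 and 39.5, 5.23 and 3.31 in B6 (-3.17 ± 0.82 (SE), adjusted p = 0.027). Dhx58, a regulator of the RNA sensor RIG-I, was at 6.56, 6.67 and 6.38 CPM in 129X1 and 28.9, 10.6 and 11 in B6 (-1.36 ± 0.37 (SE), adjusted p = 0.0345). The other 5 that passed were Isg15, Oas2, Oasl1, Rtp4 and Zbp1, with log2 differences of -2.33, -2.20, -2.52, -2.004 and -2.14. The ubiquitin-like modifier gene Isg15 was at 4.36, 4.52 and 2.58 CPM in 129X1 and 39.6, 10.1 and 8.06 in B6 (adjusted p = 0.0347). B6 library 1 held the highest of the 6 values for 27 of the 30 members, beside 17.8% of all genes tested. The summed level of the 30 was 694, 771 and 658 CPM in 129X1 and 1936, 894 and 812 in B6.

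Leaving out that library ended every 1 of the 9 calls, and the median of the 30 became -0.67. Without it Mx1 differed by -1.27 (adjusted p = 0.461), Dhx58 by -0.72 (0.368), Bst2 by -0.91 (0.23) and Oasl2 by -1.45 (0.153), and 1 member passed as higher in 129X1: Xaf1, which favours cell death, whose difference with all libraries was 0.93 and which was named after its values were seen. Without 129X1 library 1, 2 or 3 the number that passed was 0, 2 and 1, and without B6 library 2 or 3 it was 10 and 12. Under 10 CPM of Rag1 only B6 library 1 and 129X1 library 2 remained, and the median of the 30 between them was -2.08. That value therefore rests on B6 library 1. In the drug-treated mice of the same schedule, 23 of the 30 passed, beside 6.76% of all genes, with a median of -1.39. In the prophylactic mice 2 of the 30 passed, beside 4.28% of all genes, with a median of -0.61. In the 12 drug-treated mice Oasl2 was lower, at -1.80 (adjusted p = 0.000514) and Bst2 at -1.45 (0.000157).

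The promoters of Bst2 and Isg15 are printed because both hold the core of the interferon-stimulated response element, GAAANNGAA, searched on both strands and marked in capitals, where adjoining capitals are overlapping matches. Each is a window of 300 bases around the gene's start, from RefSeq on GRCm38.p6.
Bst2 (chr8:71537423-71537722, minus strand): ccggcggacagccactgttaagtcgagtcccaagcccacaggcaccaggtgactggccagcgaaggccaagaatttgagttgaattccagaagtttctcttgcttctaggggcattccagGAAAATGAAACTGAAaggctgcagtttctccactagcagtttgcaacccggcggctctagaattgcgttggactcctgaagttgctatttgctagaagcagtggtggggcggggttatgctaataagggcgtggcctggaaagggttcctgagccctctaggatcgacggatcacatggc
Isg15 (chr4:156200769-156201068, minus strand): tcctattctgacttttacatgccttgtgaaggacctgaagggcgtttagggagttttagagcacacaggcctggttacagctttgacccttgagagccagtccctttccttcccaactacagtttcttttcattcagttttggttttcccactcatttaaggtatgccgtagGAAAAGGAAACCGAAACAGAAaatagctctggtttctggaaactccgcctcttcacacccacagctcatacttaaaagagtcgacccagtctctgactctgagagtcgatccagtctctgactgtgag
The core was found at 2 overlapping starts in the Bst2 promoter and at 3 in that of Isg15. It was in a promoter of 12 of the 20 list members that had one in the table, where any promoter of a gene counted. Of all 32851 promoters of that length, each counted singly, 8.56% held it, so the shares are not fully alike. Of the 9 genes that passed, 4 had a promoter in the table, and those of Oasl1 and Oasl2 did not hold these letters.

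Genes of the matrix and of the remodelling wall lay lower in 129X1 for the most part, and few passed. All 28 tested genes of fibrillar collagens, elastic fibres and crosslinking had a difference below 0 (median -0.75), beside 10838 of all 18628 genes tested. Of the 28, 1 passed, beside 1.58% of all genes. That gene was Lox, the lysyl oxidase that crosslinks collagen and elastin, at 78.2, 89.3 and 47.3 CPM in 129X1 and 746, 239 and 142.3 in B6 (-2.39 ± 0.64 (SE), adjusted p = 0.0341). The strains did not overlap, and B6 library 1 lay far above the rest. For Lox the difference without B6 library 1 was -1.41 (adjusted p = 0.322), and the call also ended without 129X1 library 1, 2 or 3 (0.13, 0.0668 and 0.188). In the prophylactic mice Lox was lower in 129X1 (-2.27, adjusted p = 0.0381), and in the drug-treated mice it did not pass (-1.34, 0.0654). B6 library 1 held the highest value of 25 of the 28 matrix genes, and the list's median without it was -0.29.

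Of 19 basement membrane genes, Col4a6 alone passed, beside 1.58% of all genes lower. It encodes the alpha 6 chain of collagen IV and was at 1.1, 3.58 and 0.696 CPM in 129X1 and 73.9, 21.2 and 54.6 in B6 (-4.800 ± 0.68 (SE), adjusted p = 2.63e-05), every B6 value lying above every 129X1 value, and it passed without any 1 library. With only the libraries compared in the fit, no basement membrane gene passed, Col4a6 included. Col4a6 was lower in the prophylactic mice (-3.87, adjusted p = 0.000278) and in the drug-treated mice (-4.30, 1.91e-07) too. The median of the 19 was -0.43, and it was -0.11 without B6 library 1 and -0.16 without 129X1 library 3.

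Among 16 genes of modulated smooth muscle, Thbs1 was the 1 that passed, beside 1.58% of all genes lower. This matricellular protein, which activates latent TGF-beta, was at 41.1, 37.9 and 23.8 CPM in 129X1 and 265, 149.6 and 105 in B6 (-2.34 ± 0.56 (SE), adjusted p = 0.0143), and the strains did not overlap. Without B6 library 1 the Thbs1 difference was -1.89 (adjusted p = 0.0948), and without 129X1 library 1 or 3 the adjusted p was 0.0509 and 0.106. In the drug-treated mice Thbs1 was lower, at -1.68 (adjusted p = 0.00542). Comp, a cartilage matrix protein also made by modulated smooth muscle, was the 1 of 15 chondrocyte and bone genes that passed, at 11.3, 18.9 and 7.57 CPM in 129X1 and 200.1, 53.3 and 59.4 in B6 (-3.05 ± 0.80 (SE), adjusted p = 0.0285). Its call ended without B6 library 1 (-2.16, adjusted p = 0.207) and without 129X1 library 1 (0.149) or 3 (0.169).

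No gene passed among 19 contractile smooth muscle genes (median -0.12), 27 matrix proteases and inhibitors (-0.49), 19 TGF-beta ligands, receptors and targets (-0.62) and 15 adventitial fibroblast genes (-0.39). Without B6 library 1, the highest library for 17 of the 19 TGF-beta genes and all 15 fibroblast genes, these medians were 0.25, -0.22, -0.25 and -0.01. Without 129X1 library 2 they were -0.74, -0.48, -1.02 and -0.65, and without 129X1 library 3 0.29, -0.32, -0.45 and -0.30. The contractile median changed sign when either of B6 library 1 and 129X1 library 3 was left out. The members with the smallest p included Synpo2 (1.06 ± 0.67 (SE), adjusted p = 0.506) of the contractile genes, the protease inhibitor genes Timp4 (1.48 ± 0.46 (SE), adjusted p = 0.0816) and Timp3 (-0.85, 0.237), and Cyr61 (-2.38 ± 0.68 (SE), adjusted p = 0.052) of the TGF-beta targets. Cyr61 passed without B6 library 2 (0.0404) or 3 (0.031). Timp4 was at 57, 56.9 and 43.8 CPM in 129X1 and 18.3, 17.9 and 20.4 in B6, and in the prophylactic mice it was higher in 129X1 (1.81, adjusted p = 0.0203). Of the fibroblast genes these were Has1 (-1.87, 0.297) and Fbln1 (-1.23, 0.344).

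Of the endothelial, macrophage and mast cell lists, 1 gene each passed, lower in 129X1, beside 1.58% of all genes lower. Vcam1, the leukocyte adhesion molecule of activated endothelium, was the 1 of 19 endothelial genes that passed, at 51.2, 87.3 and 63.7 CPM in 129X1 and 312, 132 and 84.8 in B6 (-1.39 ± 0.37 (SE), adjusted p = 0.0322). Fcgr1, the high-affinity IgG receptor of macrophages, was the 1 of 21 macrophage genes, at 3.38, 5.6 and 2.7 CPM in 129X1 and 50.3, 12.9 and 12.2 in B6 (-2.69 ± 0.63 (SE), adjusted p = 0.0119). Fcer1a, the IgE receptor chain of mast cells, was the 1 of 9 mast cell genes, at 0.122, 0.134 and 0.409 CPM in 129X1 and 2.7, 0.559 and 1.15 in B6 (-2.69 ± 0.75 (SE), adjusted p = 0.0457). The strains did not overlap for Fcgr1 and Fcer1a, whereas the highest 129X1 value of Vcam1 lay above the lowest B6 value. Without B6 library 1 the differences were -0.68 (adjusted p = 0.385) for Vcam1, -1.69 (0.184) for Fcgr1 and -1.91 (0.276) for Fcer1a. Calls of Vcam1 and Fcgr1 also ended without 129X1 library 1 (0.204 and 0.0855) or 3 (0.137 and 0.0916), and that of Fcer1a without 129X1 library 1 (0.256) or 2 (0.143) or B6 library 3 (0.0653). Fcgr1 was lower in the prophylactic mice (-2.40, 0.0242) and the drug-treated mice (-2.52, 0.000285) as well.

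Of 31 chemokine, cytokine and inflammatory mediator genes (median -0.92), 2 were lower and none higher, beside 1.58% of all genes lower. Cx3cl1, the membrane-bound chemokine of endothelium and nerve, was at 12.6, 22 and 10.6 CPM in 129X1 and 75.6, 29.9 and 37.3 in B6 (-1.66 ± 0.40 (SE), adjusted p = 0.0152). Cxcl10, an interferon-induced T cell chemokine, was at 1.43, 3.22 and 2.09 CPM in 129X1 and 29.4, 5.11 and 4.03 in B6 (-2.51 ± 0.68 (SE), adjusted p = 0.0377). B6 library 1 was the highest for both. Without it Cx3cl1 differed by -1.16 (adjusted p = 0.172) and Cxcl10 by -1.03 (0.491), and the calls also ended without 129X1 library 1 (0.11 and 0.217) or 3 (0.121 and 0.159), and that of Cxcl10 without 129X1 library 2 (0.0544).

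Immediate early genes respond within minutes to growth factors, stretch and handling of tissue. Of 20, 2 were lower and none higher in 129X1, beside 1.58% of all genes lower. The list's median was -0.78, and -0.42 without B6 library 1. Nr4a1, an orphan nuclear receptor, was at 50.7, 43.2 and 39.6 CPM in 129X1 and 286, 105 and 93.8 in B6 (-1.86 ± 0.44 (SE), adjusted p = 0.0135), and the zinc finger factor Egr1 was at 70.6, 105 and 50 CPM in 129X1 and 445, 128 and 112.9 in B6 (-1.602 ± 0.43 (SE), adjusted p = 0.0332). Their values did not overlap, and B6 library 1 was again highest, as for 15 of the 20. Without that library Nr4a1 differed by -1.16 (adjusted p = 0.206) and Egr1 by -0.68 (0.453). The Nr4a1 call also ended without 129X1 library 2 (0.0531) or 3 (0.0819), and that of Egr1 without 129X1 library 1 (0.154) or 3 (0.204). In the prophylactic mice Nr4a1 was lower (-2.08, 0.00449). The promoter of Nr4a1 held neither the cAMP response element TGACGTCA nor the serum response factor box on either strand. These were in a promoter of 3 and 2 of the 16 immediate early genes that had one in the table. Of all 32851 promoters, each counted singly, 1.79% and 1.63% held them.

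No gene passed among 13 neutrophil genes (median -0.67), 20 complement genes (-0.56), 18 genes of MHC class I presentation (-0.46) and 10 of MHC class II (-0.42). Without B6 library 1, the highest library for 16 of the 20 complement genes, the complement median was -0.20 and that of MHC class II -0.13. The MHC class II median was -0.78 without 129X1 library 2, -0.23 without 129X1 library 1, -0.25 without 129X1 library 3 and -0.64 without B6 library 3. Mmp9 and S100a8, the neutrophil genes with the smallest p, were at log2 differences of 1.80 (0.419) and -2.09 (0.447). C5ar1, the receptor of the complement peptide C5a, was at 12.6, 15.6 and 9.9 CPM in 129X1 and 66.8, 31.3 and 32.9 in B6 (-1.78 ± 0.64 (SE), adjusted p = 0.166), and C1qa, which starts the classical pathway, was at a log2 difference of -1.18 (0.242). H2-M3 was at -0.83 (0.0774, and 0.0281 without 129X1 library 2), H2-T24 at 0.94 (0.32), H2-Ob at 1.59 (0.501) and H2-DMb1 at -0.54 (0.533). C5ar1 was lower in 129X1 in both other sets of mice (-2.83, 0.0111 prophylactic and -1.99, 0.00556 with drug).

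Genes of oxidative metabolism and fat lay on the 129X1 side, and none passed. All 22 nuclear-encoded respiratory chain genes had a difference above 0, between 0.49 and 0.93 (median 0.72), and 21 of 22 had values that did not overlap, beside 20.9% of all genes. 129X1 library 1 held the highest value of all 22, beside 18.1% of all genes tested. Limma voom with quality weights passed 18 of the 22, beside 3099 of all 18628 genes tested. The summed level of the 22 was 18915, 12951 and 13069 CPM in 129X1 and 11307, 8259.7 and 7798 in B6. Ndufs1 and Ndufb5 of complex I had the smallest p, with Ndufs1 at 569, 349 and 416 CPM in 129X1 and 283, 226 and 199 in B6 (0.92 ± 0.38 (SE), adjusted p = 0.261) and Ndufb5 at a log2 difference of 0.77 (0.294). All 9 tested mitochondrially encoded genes lay above 0 (median 0.77), led by the ribosomal RNA genes mt-Rnr2 (1.04 ± 0.34 (SE), adjusted p = 0.114) and mt-Rnr1 (0.89, 0.194), and mitochondrial genes held 8.26 to 11% of counts in 129X1 and 5.21 to 7.11% in B6.

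The same libraries were separated by brown fat genes. All 12 were above 0 with a median of 1.20, 9 of them without overlap, beside 20.9% of all genes, and their summed level was 6000.0, 4092 and 4499 CPM in 129X1 and 2407, 1938 and 1213 in B6. The DESeq2 Wald test passed 1 and limma voom 6 of the 12, beside 823 and 3099 of all 18628 genes tested. The fatty acid elongase gene Elovl3 was at 122, 93.6 and 73.3 CPM in 129X1 and 15.3, 29.7 and 18.3 in B6 (2.19 ± 0.75 (SE), adjusted p = 0.134), the proton channel gene Otop1 at 196, 116.7 and 131.1 CPM in 129X1 and 67.7, 60.3 and 46.8 in B6 (1.35 ± 0.54 (SE), adjusted p = 0.238), and the difference of Ucp1, whose values stand above, was 1.69 ± 0.68 (SE), adjusted p = 0.238. Elovl3 was higher in 129X1 in the drug-treated mice (1.93, adjusted p = 0.0223). Of 18 adipocyte genes 16 lay above 0 (median 0.69), with Lpl, lipoprotein lipase, at 1.20 ± 0.38 (SE), adjusted p = 0.088. The hormone resistin, Retn, was 1 of the 2 members below 0 (-1.41 ± 0.43 (SE), adjusted p = 0.0741), and it passed without B6 library 2 (-1.70, 0.0371). Skeletal muscle genes all lay above 0 too (16 of 16, median 0.74), with summed levels of 30189.7, 7577 and 21059.6 CPM in 129X1 and 16634, 3695 and 9250.3 in B6, which overlapped, and the skeletal muscle median was 0.34 without 129X1 library 1, 1.11 without 129X1 library 2, 1.43 without B6 library 1 and 0.33 without B6 library 2. Scores of skeletal muscle, adipocyte and Schwann cell genes, each the mean log2 CPM of the list, were also used as covariates. With them the respiratory chain median was 0.17 and the brown fat median 0.28. The adipocyte score is itself made of fat genes, so that fit cannot decide the part of tissue content. With Rag1 under 10 CPM, only 129X1 library 2 and B6 library 1 remained, and the respiratory chain and brown fat medians were 0.20 and 0.33. These libraries had the lowest brown fat sum of 129X1 and the highest of B6. The part of tissue content in the respiratory chain and brown fat differences was not tested. Myh7 and Myh2, the muscle myosin genes with the smallest p, reached 220.4 and 1144 CPM in 129X1 library 1 and did not pass (0.266 and 0.532).

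Tissues around the artery gave calls that rested on single libraries. Calca, the gene of calcitonin and CGRP, was at 0.693, 0.716 and 2.62 CPM in 129X1 and 1.09, 2.04 and 1527 in B6 (-8.56 ± 1.84 (SE), adjusted p = 0.00538). Only B6 library 3 was high, and without it the Calca difference was -0.22 (adjusted p = 0.951), while without 129X1 library 1 the adjusted p was 0.0535. Tshr, the thyrotropin receptor gene, was at 3.18, 2.6 and 2.29 CPM in 129X1 and 4.42, 4 and 28.6 in B6 (-2.19 ± 0.57 (SE), adjusted p = 0.0282), and without B6 library 3 it differed by -0.65 (0.646). The Tshr call also ended without 129X1 library 1 (0.0925), 2 (0.0861) or 3 (0.142). The summed level of 10 thyroid follicle genes was 7.38, 3334 and 1314 CPM in 129X1 and 11.7, 12.1 and 40991 in B6, and that of 8 C cell and parathyroid genes was 45.8, 13311 and 303 CPM in 129X1 and 88.7, 355 and 11919 in B6. B6 library 3 was highest for all 10 thyroid follicle genes.

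No gene passed among 16 thymocyte and thymic epithelium genes, whose median was -0.97 here against 5.80 in the prophylactic mice. Without B6 library 2 the median here was 0.91, with all 16 above 0, and it was -0.51 without 129X1 library 2, -2.18 without 129X1 library 3 and -1.56 without B6 library 1. Their summed level was 792, 181 and 2307 CPM in 129X1 and 29.7, 5462 and 1128 in B6, and Psmb11 (-1.70, 0.792) and Dntt (-1.42, 0.839) had the smallest p. Cell cycle genes (22 tested, median -0.67), T and NK cell genes (14, -0.74) and B and plasma cell genes (16, 2.79) held none that passed either. Without B6 library 2 the cell cycle median was 0.37 and that of T and NK cell genes 0.90, and without 129X1 library 2 the median of B and plasma cell genes was -1.20, so that each sign turned with 1 library. Without 129X1 library 3 or B6 library 1 the cell cycle median was -1.51 and -1.07 and the T and NK cell median -1.19 and -1.31, and the cell cycle median was -0.32 without 129X1 library 2. All 22 cell cycle genes were highest in B6 library 2, the library with the highest Rag1, and E2f1 (-0.83, 0.362) and Pcna (-1.03, 0.486) had the smallest p. Cr2 (4.78, 0.279) and Ighd (3.86, 0.235) led the B cell genes with 24.4 and 73.9 CPM in 129X1 library 2, and Klrb1c (-1.95, 0.233) and Nkg7 (-1.36, 0.544) led the T and NK cell genes.

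In nerve, Gldn, which encodes gliomedin of the node of Ranvier, was the 1 of 14 Schwann cell and myelin genes that passed, beside 1.61% of all genes higher. It was at 53.9, 41.5 and 37.1 CPM in 129X1 and 18, 16.4 and 16 in B6 (1.39 ± 0.31 (SE), adjusted p = 0.00831), higher in every 129X1 library, although the median of the 14 was -0.33 (-0.15 without 129X1 library 3, -0.22 without B6 library 1 and -0.12 without B6 library 3). Gldn was higher in the prophylactic mice too (1.57, adjusted p = 0.0024), and here its call ended without 129X1 library 1 (1.23, 0.0652). Th, the enzyme that starts catecholamine synthesis, was at 54, 2.33 and 124 CPM in 129X1 and 62.6, 51.9 and 36.8 in B6, and no gene of 16 sympathetic neuron and glomus cell genes passed (median -0.02; Slc18a1 -0.76, 0.626; Uchl1 -0.67, 0.837). None passed of 18 circadian clock genes (median -0.02), in which Per2 was at 0.83 (0.21) and Per3 at 0.71 (0.228). Nor did any of 7 erythroid genes (1.02), led by Alas2 (1.38, 0.332) and Hbb-bs (1.21, 0.401), or of 6 lymphatic genes (0.22), led by Pdpn (-1.89, 0.151) and Reln (0.54, 0.676). With 1 library left out the sympathetic and glomus median ranged from -1.10 (without 129X1 library 3) to 0.38 (without 129X1 library 2), and the circadian median from -0.08 (without 129X1 library 1) to 0.21 (without B6 library 2). The erythroid median ranged from 0.67 (without B6 library 2) to 1.79 (without B6 library 1), and the lymphatic from -0.11 (without 129X1 library 2) to 0.42 (without 129X1 library 3).

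The 24 lists in which edgeR's test passed no gene held 379 genes. Of these, 58 had an unadjusted p below 0.05 in that test, beside 2623 of all 18628 genes tested. In the same 379 genes the DESeq2 Wald test passed 12, beside 823 of all genes tested. Limma voom with quality weights passed 63 of the 379, beside 3099 of all genes tested.

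**Figure D4:**
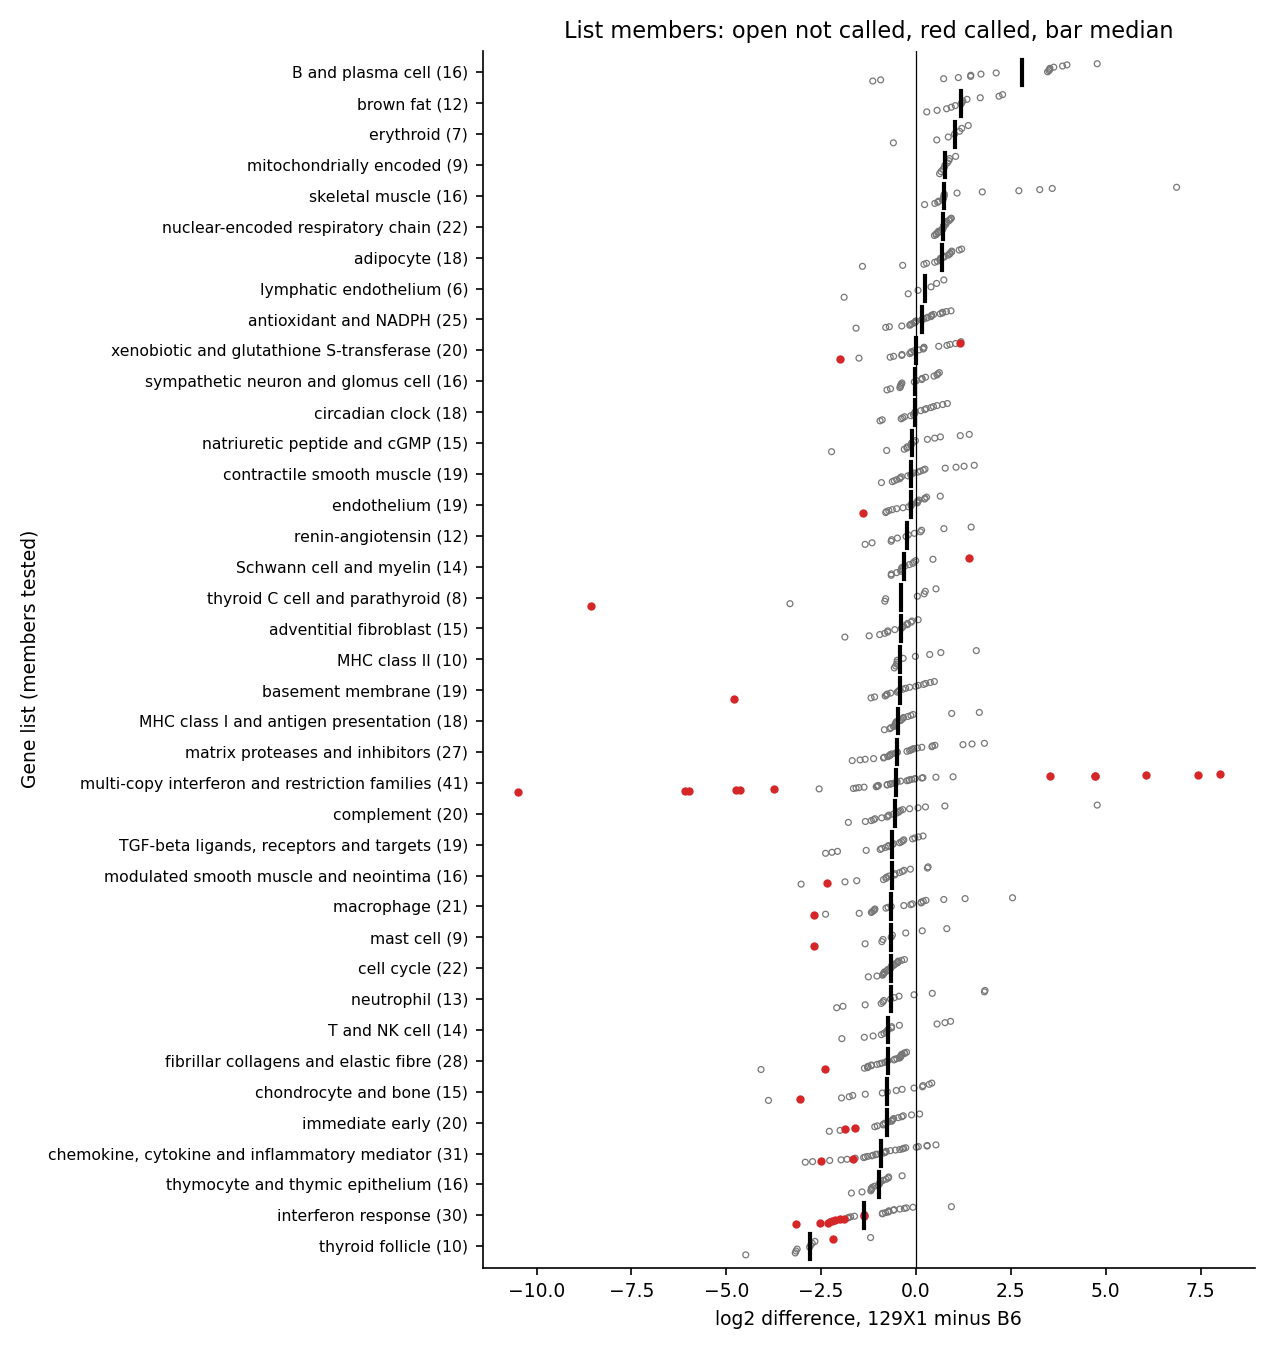
Each row is a gene list with the number of members tested, and each point is a member's log2 difference, 129X1 minus B6 (red where it passed), with a bar at the list's median. Most interferon response members lie below 0 with 9 red points, the multi-copy families spread to both sides, and the respiratory chain and brown fat genes lie above 0 with no red point.

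The genes that the study's drugs act on did not pass. Mme, which encodes neprilysin, the peptidase that sacubitril inhibits and that degrades natriuretic peptides, was at 141.9, 86.9 and 136 CPM in 129X1 and 62.7, 39.4 and 35.8 in B6 (1.40 ± 0.44 (SE), adjusted p = 0.0893, 95% interval 0.50 to 2.31; chr3:63241537-63386030). Every 129X1 value was above every B6 value, and the interval excluded 0 while the adjusted p did not pass. The DESeq2 Wald test gave an adjusted p of 0.0315 for Mme, limma voom 0.0026, and the fit with 3 list scores 0.0171 at a smaller difference of 0.75. In the other mice Mme differed by 0.98 (0.187, prophylactic) and 0.65 (0.242, with drug).

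Agtr1a, the angiotensin receptor that valsartan blocks, was at 12.1, 13.5 and 14 CPM in 129X1 and 11.8, 5.19 and 6.75 in B6 (0.74 ± 0.36 (SE), adjusted p = 0.357, 95% interval -0.0029 to 1.47). Npr3, the clearance receptor of natriuretic peptides, was at 32.4, 17.8 and 26.3 CPM in 129X1 and 26.3, 13.9 and 14.1 in B6 (0.49 ± 0.45 (SE), adjusted p = 0.675). The strains overlapped for Npr3, and for Agtr1a B6 library 1 lay just under the lowest 129X1 value. No gene of 12 tested renin-angiotensin genes (median -0.23) or of 15 natriuretic peptide and cGMP genes (-0.12) passed, and without B6 library 1 these medians were 0.03 and 0.10. The natriuretic peptide median was -0.36 without B6 library 2 and 0.04 without B6 library 3. Agtrap, a protein that binds the angiotensin receptor, was at 45, 54.5 and 44.4 CPM in 129X1 and 66.3, 91.9 and 68.2 in B6 (-0.65 ± 0.19 (SE), adjusted p = 0.0583), Cma1, the chymase of mast cells, at a log2 difference of -1.34 (0.209), and Nppc, C-type natriuretic peptide, at -2.22 (0.28). Agtrap was lower in 129X1 in the drug-treated mice (-0.49, 0.0228).

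Nnt, a mitochondrial transhydrogenase that makes NADPH and in which C57BL/6J mice carry a deletion of several exons, was at 45.7, 36.5 and 28 CPM in 129X1 and 19.9, 26.2 and 24.6 in B6 (0.64 ± 0.27 (SE), adjusted p = 0.267). The strains did not overlap, and the difference passed in the drug-treated mice (0.84, 0.00477); counts over the whole gene do not show which exons were read. None of 25 antioxidant and NADPH genes passed (median 0.16, and 0.08 to 0.27 with 1 library left out, lowest without B6 library 2 and highest without B6 library 1), with heme oxygenase, Hmox1, at -1.58 (0.248). Among 20 xenobiotic genes 1 was lower and 1 higher, beside 3.18% of all genes in either direction. Cyp2f2, a cytochrome P450, was at 15.9, 18.3 and 14.7 CPM in 129X1 and 108, 34.8 and 54.4 in B6 (-2.01 ± 0.37 (SE), adjusted p = 0.000956), lower in all 3 129X1 libraries and in both other sets of mice (-1.91, 0.00162 and -1.35, 0.000764). Cyp4b1 was at 72.2, 54.1 and 43.1 CPM in 129X1 and 31.5, 18.2 and 25.5 in B6 (1.17 ± 0.33 (SE), adjusted p = 0.0479), and its call ended without any 1 library but 129X1 library 3 (adjusted p for Cyp4b1 up to 0.292).

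Of genes that no list or rank chose and that were named after their values were seen, several had small spread. Gdpd3, a lysophospholipase, was at 78.4, 75 and 75.5 CPM in 129X1 and 4.01, 4 and 3.39 in B6 (4.33 ± 0.20 (SE), adjusted p = 2.17e-14). Gchfr, the feedback regulator of tetrahydrobiopterin synthesis, was at 48.6, 40.2 and 33.4 CPM in 129X1 and 0.375, 0.32 and 0.552 in B6 (6.60 ± 0.57 (SE), adjusted p = 4.99e-09), and the histidine ammonia-lyase gene Hal at 26.2, 21.4 and 20.8 CPM in 129X1 and 0.187, 0.679 and 0.467 in B6 (5.67 ± 0.55 (SE), adjusted p = 4.69e-08). Each of the 3 genes was in separate ranges in the strains with a gap wider than the range within either strain. Rnaset2b, a ribonuclease gene with a near-identical copy, was at 0.163, 0.134 and 0.286 CPM in 129X1 and 4.31, 4.63 and 4.58 in B6 (-4.49 ± 0.38 (SE), adjusted p = 3.46e-09), and Wdfy1, an adaptor of endosomal receptors, at 47.7, 43.4 and 42.4 CPM in 129X1 and 20.8, 19.8 and 23.6 in B6 (1.05 ± 0.16 (SE), adjusted p = 7.08e-05). All 5 passed with any 1 library left out, and all 5 passed in the same direction in the prophylactic and the drug-treated mice.

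The same contrast in other mice gave the same direction for nearly every gene that passed. These mice share no library with the 6 above, only the estimate of spread. In the prophylactic mice 797 genes passed (4.28% of those tested, 438 higher), and 592 of the 593 had the same sign, all but Erdr1. In the drug-treated mice 1260 passed (6.76%, 619 higher), and again 592 of the 593 had the same sign. Among genes that did not pass here, 65.4% and 66.4% had the same sign. The genes that passed in both vehicle schedules with the same sign numbered 428, 72.2% of the therapeutic and 53.7% of the prophylactic calls. Those shared with the drug-treated mice numbered 508, 85.7% of the 593 and 40.3% of the 1260. Slfn8, for example, was at log2 differences of -4.43 (prophylactic) and -5.47 (with drug), and Gdpd3 at 4.32 and 4.13. How many genes passed in the prophylactic mice moved with single libraries, to 445 without 129X1 library 1, 505 without 129X1 library 2 and 470 without B6 library 3 of that group, and in the drug-treated mice to 2184 without B6 valsartan library 1.

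In all 3 sets 410 genes passed with 1 sign, 217 of them protein coding, with a median size of 3.47 on the log2 scale. The 67 that passed in the therapeutic vehicle mice alone were 52 lower and 15 higher, 50 of them protein coding, with a median size of 1.62 here and of 0.84 and 0.60 in the other sets. Of the genes described above they include Gdf6, Comp, Vcam1, Fcer1a, Cx3cl1, Cxcl10, Egr1, Calca, Tshr, Klrc2 and Klre1.

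**Figure D5:**
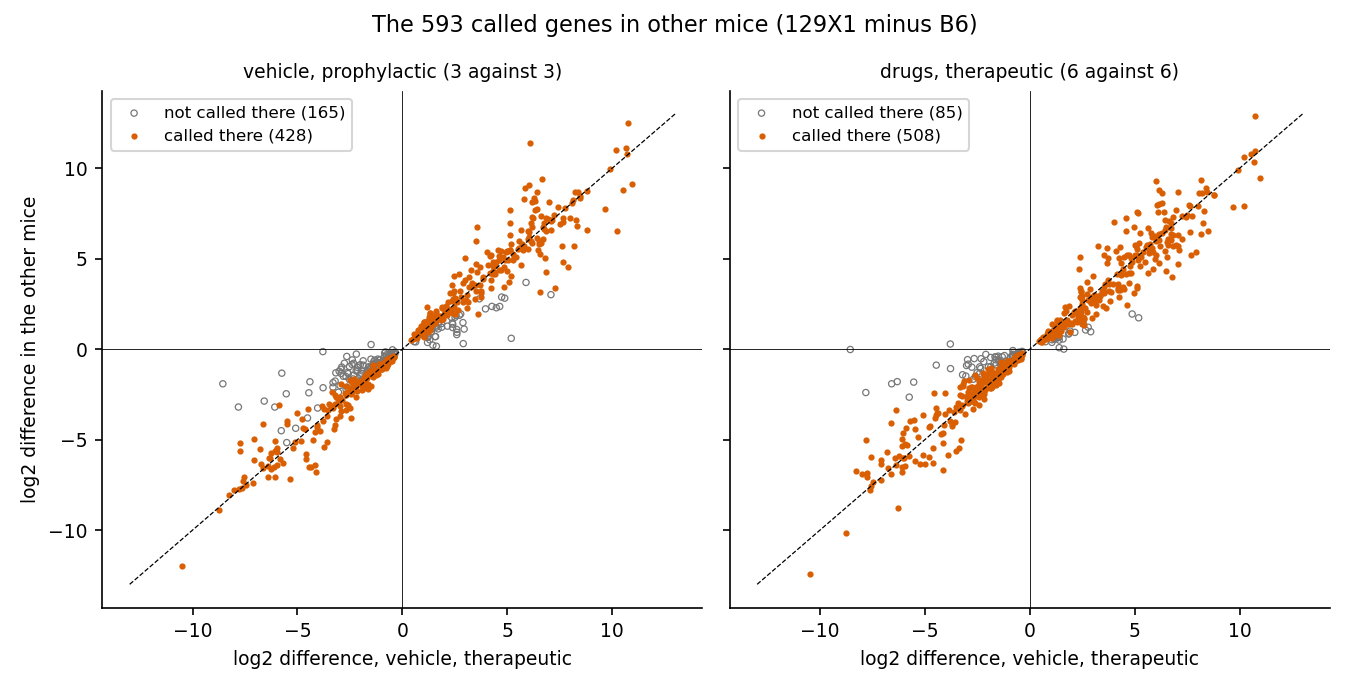
For the 593 genes that passed, the log2 difference in the therapeutic vehicle mice (x axis) against that in the prophylactic vehicle mice (left) and in the drug-treated therapeutic mice (right), filled where the gene also passed there, with a dashed line of equality. Of the 593 points, 428 are filled on the left and 508 on the right, and nearly all lie in the lower left or upper right corner.

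Whether the strain difference itself differed between the schedules was tested as an interaction over the 12 vehicle libraries. No gene passed edgeR's quasi-likelihood test (0.0% called), 541 had an unadjusted p below 0.05, the smallest adjusted p was 0.859, and the DESeq2 Wald test passed 25 genes and limma voom 0. Among genes with a mean of at least 5 CPM the smallest p belonged to Ttc25, a gene of motile cilia, whose strain difference was 0.54 on the therapeutic and 4.06 on the prophylactic schedule (adjusted p of the interaction = 0.949). Next came Gm20721, which overlaps Gnas on the other strand (1.32 and -1.82, 0.949), and Rn18s-rs5, an 18S ribosomal RNA related sequence (1.84 and -2.91, 0.949). In the median gene the 95% interval of the interaction, without adjustment, reached 1.08 to either side on the log2 scale. Passing after adjustment takes a larger difference than that in such a gene. Differences between schedules above 1.08 could therefore also go undetected.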

How the data were processed

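RNA of ligated left carotid arteries was measured by stranded mRNA sequencing, per the labels' protocols, in 36 libraries of 12 groups of 3 mice. The authors deposited raw counts per gene symbol, made with Trimmomatic 0.36, STAR 2.5.2b and featureCounts of Subread 1.5.0p3 on GRCm38, per the submitters' processing notes. The annotation release, the strand setting and the handling of reads that match several genes are not given in the sources used here. Reads of both strains were aligned to the C57BL/6J genome, and the effect of strain sequence differences on the counts was not tested. All 36 columns were matched to a library by the animal number in its title, and 0 rows lacked a gene name. The labels name separate mice and no shared replicate numbers, and beyond that p-values measure the spread between these samples.

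Counts were filtered with edgeR's filterByExpr and scaled by TMM (edgeR 4.0.16, R 4.3.3). One quasi-likelihood fit over all 12 groups gave 24 residual degrees of freedom, and p-values were Benjamini-Hochberg adjusted over the 18628 genes tested, with a threshold of 0.05. Intervals cover 95%, and counting ratios are exact binomial intervals of summed counts scaled by library size, which cover counting error only. The fit was tested on simulated counts. Gene classes and coordinates came from GENCODE M21, which held 18093 of the genes tested, and pseudogenes were matched to coding transcripts with blastn 2.17.0+. Other steps used Python 3.11.15 and scipy 1.17.1.

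The members and gene lists were chosen with earlier results of these data known. Genes are named by this rule: Mme, Agtr1a, Npr3 and Nnt; the 12 largest differences in each direction among genes that passed, with at least 5 CPM in the higher group and no overlap; per list up to 4 members that passed, or the 2 with the smallest p; the 3 smallest interaction p; tissue markers; and gene pairs that share sequence. Some genes that this rule names are not reported here. Alternatives were DESeq2 size factors, no filter, a robust prior, animal number or 3 list scores as covariates, only the libraries compared, limma voom (3.58.1), DESeq2 (1.42.0) and each library left out. Leaving out libraries with at least 10 CPM of Rag1, and summing each coding gene with its copies, were chosen after seeing the data.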

Additional observations from a re-analysis of the deposited data

How the results depend on the processing

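The 593 genes of the therapeutic vehicle comparison became 155 with only the 6 libraries in the fit, 3099 with limma voom and 136 in the libraries under 10 CPM of Rag1, and 352 to 562 with 1 library left out, lowest without 129X1 library 1 (352) or 3 (390). Under DESeq2 size factors, no filter, a robust prior, animal number, 3 list scores, the DESeq2 Wald test and summed copies the counts were 573, 466, 589, 624, 755, 823 and 413. The prophylactic count of 797 became 3542 with limma voom and 1663 with the DESeq2 Wald test, and 445 to 1045 with 1 library left out (445 and 505 without 129X1 library 1 or 2, 470 without B6 library 3). The interaction passed 25 genes with the DESeq2 Wald test and 0 under every other alternative run. The 1260 of the drug-treated mice became 2049 with animal number, 2713 with 3 list scores, 764 with only the libraries compared and 6781 with limma voom, and 886 to 2184 with 1 library left out, highest without B6 valsartan library 1. Ndufs5 turned from -4.08 to 0.87 (adjusted p = 0.124) when summed with BC002163. Of 78 named genes that passed, 47 no longer did in those 2 libraries, 35 with only 6 libraries, 9 with no filter, 8 with animal number, 5 with limma voom, 3 with 3 list scores, 1 with DESeq2 size factors, 0 with a robust prior and 0 of the 77 with an adjusted p from the DESeq2 Wald test. Fewer libraries set the spread in the fits with only the libraries compared and without the Rag1 libraries, and for the other changes the cause was not tested. With 1 library left out, 23, 14 and 19 of the 78 no longer passed without 129X1 library 1, 2 and 3, and 19, 7 and 8 without B6 library 1, 2 and 3. Of 39 list medians, 8 moved by more than the spread between libraries in the fit with 3 list scores, 8 without B6 library 1, 3 without B6 library 2, 3 without B6 library 3, and 1, 3 and 2 without 129X1 library 1, 2 and 3. No paired analysis was possible because the labels give the groups no shared replicate numbers. Depth limits what can be said of genes near the filter. With 3 mice a strain, intervals reached 0.76 on the log2 scale to either side in the median gene, and passing after adjustment takes a larger difference than that in such a gene.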
